A study of Mus musculus with 22 samples.

Results

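Transcript levels of 10 genes of the BCL-2 family were examined in mouse bone marrow-derived macrophages (BMDM), that is, macrophages grown in culture from bone marrow. The genes were Bcl2, Bcl2l1, Mcl1, Bcl2l11, Pmaip1, Bbc3, Bid, Bad, Bax and Bak1. They were found by the RefSeq accession that each array probe carries, which gave 13 probes for the 10 genes, out of 28105 probes of 22386 genes that were tested. All 13 probes were well above background on all 22 arrays. The cells came from C57BL/6 mice aged 10 to 14 weeks and labelled male, which were wild-type (wt), lacked the protein kinase MK2 (MK2-/-), or lacked MK2 and the related kinase MK3 (MK2/3-/-). Both deletions were present in every cell of the animal from the start, and all cells had been differentiated with M-CSF. Per the study's methods, the medium was replaced by one without M-CSF before the experiments. Cultures of each genotype received either medium or 100 ng per ml of lipopolysaccharide (LPS), a cell wall component of Gram-negative bacteria, for 360 min. Arrays numbered 4 for wt in medium, 3 for wt with LPS, 4 for MK2-/- in medium, 4 for MK2-/- with LPS, 3 for MK2/3-/- in medium and 4 for MK2/3-/- with LPS.

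Proteins of the BCL-2 family decide whether the outer membrane of the mitochondria stays closed. BCL-2, BCL-XL (the product of Bcl2l1) and MCL-1 keep it closed and promote survival. BAX and BAK, when activated, open pores through which cytochrome c escapes and caspases become active. A group of smaller proteins that share only the BH3 domain, among them BIM (Bcl2l11), NOXA (Pmaip1), PUMA (Bbc3), BID and BAD, senses stress and either blocks the survival proteins or activates the pore formers. Macrophages exposed to bacterial products are known to change several of these genes, and MCL-1 and NOXA are proteins with a short life. Transcript levels say nothing of the phosphorylation and cleavage by which BAD and BID are controlled.

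All values below are log2 signals after quantile normalisation, and a difference of 1 is a 2-fold change. A difference was called at an adjusted p below 0.05 (limma with Benjamini-Hochberg adjustment over the 28105 probes). Where a gene had a second probe, the one with the higher mean signal stood for the gene in counts. Signals of different probes depend on the probe, so levels are compared only between arrays for the same probe.

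Some arrays stood apart. The median processed signal per array ranged from 32.7 to 107.8, and the share of probes detected over background from 61.1% to 82.7%, with the lowest of both on replicate 2 of LPS-treated wt and the highest of both on replicate 3 of LPS-treated MK2-/-, which also had 2927 outlier spots against 115 to 261 on the other arrays. The mean of 7 LPS-inducible genes (Il6, Il1b, Tnf, Ptgs2, Nos2, Cxcl1 and Ccl2) was 11.60 on replicate 4 of medium-treated wt, compared with 7.30 to 9.27 on the other medium arrays and 16.34 to 16.91 with LPS. Replicate 3 of both MK2-/- groups went against the label male, with Ddx3y at 1.99 to 2.01 compared with 10.09 to 11.26 on the 20 other arrays. Mapkapk2, which encodes MK2, was lower on every knockout array than on every wt array of the same treatment, and Mapkapk3, which encodes MK3, was at 10.94 to 11.40 in medium-treated and 7.65 to 8.55 in LPS-treated MK2/3-/- BMDM, compared with 12.83 to 13.42 and 11.94 to 12.23 in wt. The macrophage markers Adgre1, Csf1r, Itgam, Fcgr1, Mertk, Lyz2 and Cd14 were well above background on all 22 arrays. Markers of stromal cells varied widely between arrays, and the mean of Col1a1, Col1a2, Dcn and Pdgfrb lay between 5.98 and 11.36. In such bulk samples, fewer cells of a type and less RNA per cell cannot be told apart.

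The first question was how the family responds to LPS in each genotype. In wt BMDM 6 of the 10 genes were called, with Bcl2l1 and Bcl2l11 higher and Mcl1, Pmaip1, Bax and Bad lower after LPS. Over all probes 42% were called in wt, 18.3% higher and 23.7% lower. In MK2-/- BMDM 3 genes were called (Bcl2l1 and Bcl2l11 higher, Bad lower), against 45.4% of all probes, 17.6% higher and 27.8% lower. For MK2/3-/- BMDM the count was 4 (Bcl2l1 and Bcl2l11 higher, Bax and Bad lower), against 48.6% of all probes, 20.1% higher and 28.5% lower. The median change of the 10 genes was -0.15, -0.24 and 0.10 in wt, MK2-/- and MK2/3-/- BMDM, and that of all probes was -0.06, -0.04 and -0.02. The members were thus called about as often as probes in general. Without the dim replicate 2 of LPS-treated wt, 3 genes were called in wt, and without the 5 arrays of replicate letter b, a letter that LPS-treated wt lacks, it was also 3. Leaving out replicate 4 of medium-treated wt, or the MK2-/- arrays that go against their label, left each of these counts as it was. Within a genotype, the LPS and medium arrays of one letter in the authors' array names carry the same labelled age, and both letter c arrays of MK2-/- went against the label male, so they may share an animal, which the labels do not state. The p-values measure the spread between these samples, and blocked values are given where they change a call.

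The scaling of the arrays bore on the smaller changes. With each array scaled to its 75th percentile instead, the median LPS-induced change of all probes was 0.33, 0.29 and 0.28 higher in wt, MK2-/- and MK2/3-/- BMDM. For the 3887 probes with a mean signal above 12 it was 0.59, 0.59 and 0.62 higher. The share of higher probes among those called moved from 43.6% to 59.6% in wt, from 38.8% to 52.6% in MK2-/- and from 41.4% to 53.3% in MK2/3-/- BMDM. Bcl2l1, Mcl1, Bak1, Bax and Bad are bright, and their changes are given below under both scalings.

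**Figure D1:**
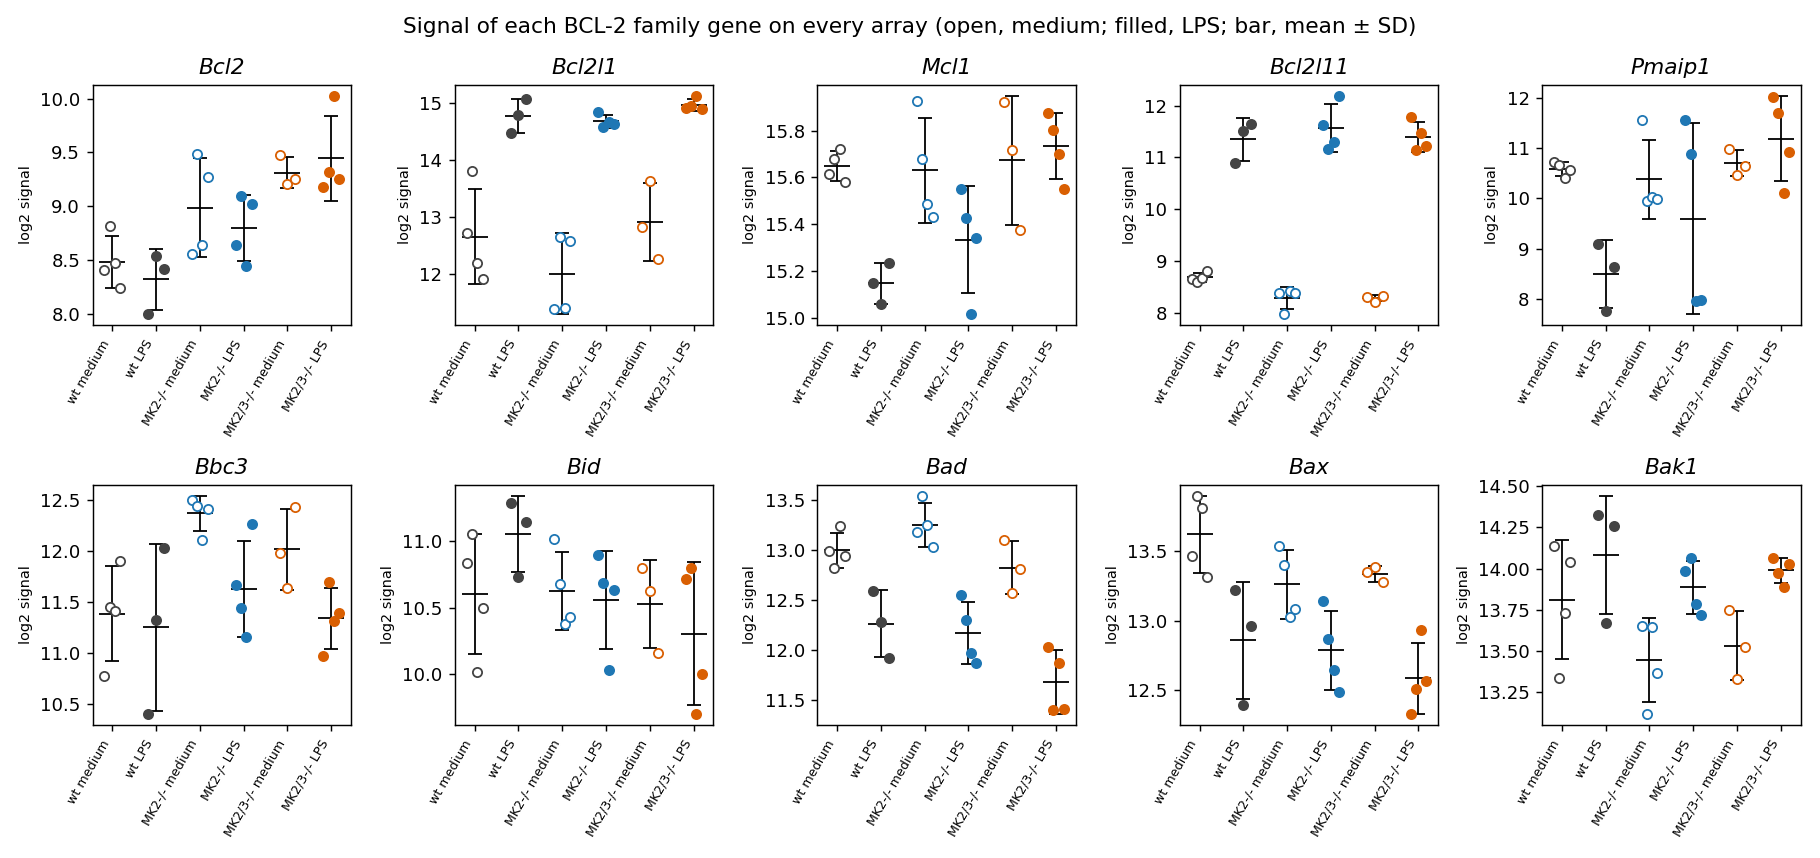
Log2 signal (vertical axes, which differ between panels) of the 10 BCL-2 family genes on each of the 22 arrays, by genotype and treatment. Open points are medium arrays and filled points LPS arrays, and bars give the mean and the SD. Bcl2l11 shows the clearest separation, with medium arrays between 7.97 and 8.80 and LPS arrays between 10.88 and 12.19.

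Among the BH3-only genes, Bcl2l11 had the most uniform response. BIM, its product, binds all survival proteins of the family. The probe carries accession NM_207680, 1 of several Bcl2l11 transcripts in RefSeq. The upstream region of its first RefSeq start is shown because this gene had the largest change after LPS among the 10 members in each genotype. The 250 bases lie on the plus strand of GRCm38.p6, chr2:128125788-128126037, and the capitals mark a match to the FOXO letters GTAAACA, which FOXO factors, known activators of Bcl2l11, can bind.
Bcl2l11: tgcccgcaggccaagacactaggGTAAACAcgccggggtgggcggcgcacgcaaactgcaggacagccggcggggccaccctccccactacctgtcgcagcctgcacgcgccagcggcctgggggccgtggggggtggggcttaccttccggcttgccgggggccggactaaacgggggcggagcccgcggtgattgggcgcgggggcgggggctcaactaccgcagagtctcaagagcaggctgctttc
Of 32851 upstream regions of this length in the RefSeq table, 3.17% hold these letters on either strand. A match of letters is a description and no site.

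In medium, Bcl2l11 was at 8.65, 8.60, 8.67 and 8.80 in wt, at 8.37, 7.97, 8.42 and 8.39 in MK2-/- and at 8.30, 8.20 and 8.33 in MK2/3-/- BMDM. With LPS it reached 10.88, 11.51 and 11.65 in wt, 11.63, 11.16, 11.29 and 12.19 in MK2-/-, and 11.78, 11.14, 11.47 and 11.21 in MK2/3-/- BMDM. Every LPS array lay above every medium array, whatever the genotype. The rise was 2.67 on the log2 scale in wt (SE 0.23, 6.35-fold, limma adjusted p 3.98e-08), 3.28 in MK2-/- (SE 0.22, 9.74-fold, adjusted p 4.86e-10) and 3.12 in MK2/3-/- BMDM (SE 0.23, 8.72-fold, adjusted p 2.83e-09). With 75th percentile scaling it was 2.96, 3.29 and 3.05. The response of MK2-/- BMDM exceeded that of wt by 0.62 (95% confidence interval -0.05 to 1.28, adjusted p 0.677), which was not called. In medium all knockout arrays lay below all wt arrays, by 0.39 in MK2-/- and 0.40 in MK2/3-/- BMDM, and neither difference was called (adjusted p 0.261 and 0.395).

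Bcl2l1, the gene of BCL-XL, was the other member that rose in all 3 genotypes. In its upstream regions, 1 of 3 RefSeq starts has a match to the letters searched for NF-κB, with some positions left free. Single starts of Mcl1 and Bbc3 have such a match too, as do 1.41% of all upstream regions. Whether these matches fit the full NF-κB consensus was not tested. The matches are shown in capitals within 30 bases, because NF-κB is the best known transcription factor of the LPS response and these are the only members with such a match in this window. Each reads 5′ to 3′ along its gene. The windows are chr2:152830916-152830945 on the minus strand (Bcl2l1), chr3:95658683-95658712 on the plus strand (Mcl1) and chr7:16309437-16309466 on the plus strand (Bbc3) of GRCm38.p6.
Bcl2l1: tacgcctctcGGAAAAACCCgggagtggtc
Mcl1: ccagccctccGGAAACGCCCgcccctttcc
Bbc3: ctggctgccgGGAAACCCCCcgcgccgagg
The 3 genes did not move alike. Letters for CRE (TGACGTCA), AP-1 (TGANTCA) and STAT (TTCNNNGAA), present in 1.55%, 6.75% and 7.02% of all upstream regions, had no match at the 15 starts of the 9 members in the table, and Pmaip1 had no entry. The FOXO letters had 1 further match, at a start of Bbc3.

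Medium-treated arrays had a Bcl2l1 signal of 12.71, 13.80, 12.20 and 11.92 in wt, 11.39, 12.65, 11.40 and 12.59 in MK2-/-, and 12.83, 13.63 and 12.27 in MK2/3-/- BMDM. With LPS the values were 14.47, 14.79 and 15.07 in wt, 14.84, 14.58, 14.66 and 14.64 in MK2-/-, and 14.91, 14.95, 15.12 and 14.89 in MK2/3-/- BMDM. All LPS arrays lay above all medium arrays, and the medium arrays were more spread out than the LPS arrays, with the letter b array highest in medium in each genotype. The rise was 2.12 in wt (SE 0.40, 4.33-fold, limma adjusted p 0.000295), 2.67 in MK2-/- (SE 0.37, 6.38-fold, adjusted p 6.68e-06) and 2.06 in MK2/3-/- BMDM (SE 0.40, 4.16-fold, adjusted p 0.000269). A second probe gave 3.00 in both knockouts (adjusted p 0.000224 in MK2-/- and 0.000448 in MK2/3-/-) and 1.48 in wt (SE 0.62, adjusted p 0.0615), or 1.53 with the array letter as a block (adjusted p 0.0421). On replicate 1 of LPS-treated wt this probe read 6.80, compared with 10.22 and 10.42 on the other LPS-treated wt arrays. Without that array the second probe's change in wt was 2.65 (adjusted p 4.65e-05). With 75th percentile scaling the rise of the first probe was 2.73 in wt, 3.24 in MK2-/- and 2.80 in MK2/3-/- BMDM.

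The remaining survival genes gave smaller changes. MCL-1, as given above, is a survival protein. The probe of Mcl1 that stood for the gene was at 15.62, 15.68, 15.72 and 15.58 in medium-treated and at 15.15, 15.06 and 15.23 in LPS-treated wt BMDM. These arrays did not overlap, and the fall of 0.50 on the log2 scale was called (SE 0.17, 1.42-fold, limma adjusted p 0.0216), but with 75th percentile scaling the change was 0.35 in the opposite direction (adjusted p 0.136). The call was also lost without replicate 2 of LPS-treated wt (-0.46, limma adjusted p 0.0802) and without the letter b arrays (-0.49, adjusted p 0.0708). With the authors' log2 values the change was -0.38 (limma adjusted p 0.0765). For MK2-/- BMDM the change was -0.30 (adjusted p 0.133), or 0.52 with 75th percentile scaling (adjusted p 0.0177), and for MK2/3-/- BMDM 0.06 (adjusted p 0.799), or 0.95 (adjusted p 0.000292).

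The second Mcl1 probe rose in every genotype under both scalings. It was at 13.17, 13.20, 12.72 and 13.21 in medium-treated and 13.74, 14.12 and 14.05 in LPS-treated wt BMDM, without overlap. Its change was 0.89 in wt (SE 0.23, 1.86-fold, adjusted p 0.00363), 1.103 in MK2-/- (SE 0.21, 2.15-fold, adjusted p 0.000226) and 0.98 in MK2/3-/- BMDM (SE 0.23, 1.97-fold, adjusted p 0.00134), and with 75th percentile scaling 1.51, 1.88 and 1.83. The probes of Mcl1 thus disagreed in direction in wt, and which part of the transcript each measures was not examined. Bcl2 itself was not called after LPS in any genotype, with changes of -0.16 in wt (95% confidence interval -0.70 to 0.38), -0.19 in MK2-/- (-0.69 to 0.31) and 0.13 in MK2/3-/- BMDM (-0.41 to 0.67). Its probe carries NM_177410, 1 of 2 RefSeq accessions of Bcl2.

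**Figure D2:**
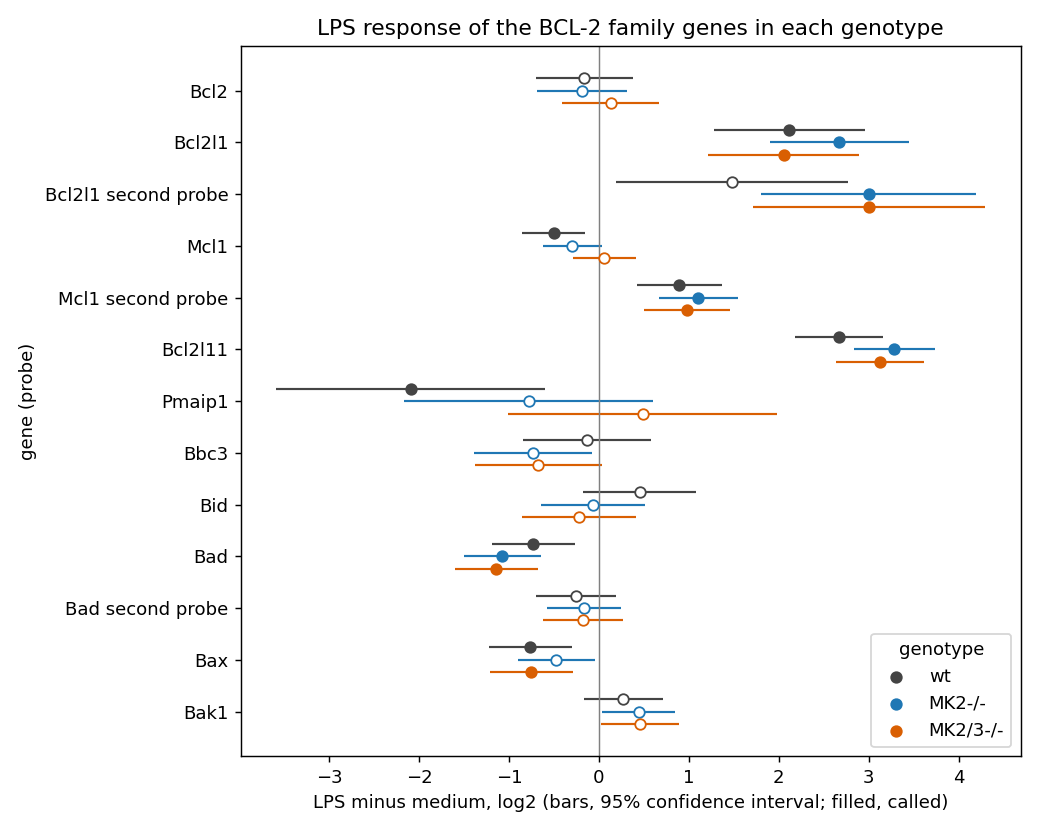
LPS minus medium on the log2 scale (horizontal axis) for the 13 probes of the BCL-2 family genes (vertical axis) in wt, MK2-/- and MK2/3-/- BMDM, with 95% confidence intervals. Filled points were called, and Bcl2l11 and the first probe of Bcl2l1 lie above 2 in all 3 genotypes while the probes of Mcl1 lie on opposite sides of 0 in wt.

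Pmaip1, the gene of NOXA, which binds MCL-1, had the widest spread between arrays. It was at 10.72, 10.66, 10.41 and 10.56 in medium-treated and at 9.10, 7.76 and 8.63 in LPS-treated wt BMDM. All LPS-treated wt arrays lay below all medium-treated ones, and the fall of 2.09 on the log2 scale (SE 0.71, 4.26-fold) was called (limma adjusted p 0.0241). The call was lost without replicate 2 of LPS-treated wt (-1.72, adjusted p 0.112), without its replicate 3 (-2.16, adjusted p 0.0521) and without the letter b arrays (-2.07, adjusted p 0.0585).

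In the knockouts the Pmaip1 arrays of the treatments overlapped. Medium-treated MK2-/- BMDM had 11.55, 9.94, 10.02 and 9.99, and LPS-treated MK2-/- BMDM had 11.56, 10.88, 7.96 and 7.98, so that replicates 3 and 4 with LPS lay near the wt values with LPS and replicates 1 and 2 lay well above them. The values of MK2/3-/- BMDM were 10.98, 10.47 and 10.65 in medium and 12.02, 11.69, 10.12 and 10.92 with LPS. The changes of -0.78 in MK2-/- (95% confidence interval -2.17 to 0.60) and 0.49 in MK2/3-/- BMDM (-1.01 to 1.98) were not called (adjusted p 0.366 and 0.616).

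Among the LPS arrays, those with the lowest mean of the stromal markers had more Pmaip1, but the single markers did not move alike. In LPS-treated wt, MK2-/- and MK2/3-/- BMDM the group means were 12.55, 9.12 and 9.20 for Col1a1, 14.06, 11.56 and 11.33 for Col1a2, 6.32, 8.01 and 8.17 for Dcn, and 8.82, 9.65 and 8.41 for Pdgfrb. The mean of the 4 stromal markers was 10.42, 10.47 and 10.43 on the LPS-treated wt arrays, where Pmaip1 was low. It was 9.31, 8.82, 9.89 and 10.33 on the LPS-treated MK2-/- arrays and 8.01, 8.65, 10.06 and 10.38 on the LPS-treated MK2/3-/- arrays, in the order of the replicates, with the lower values on the arrays of letters a and b that had more Pmaip1. Replicate 4 of LPS-treated MK2/3-/- BMDM had a stromal mean near that of wt, at 10.38, with Pmaip1 at 10.92. In medium the stromal mean ran from 5.98 to 11.36 while Pmaip1 stayed between 9.94 and 11.55. The part of the stromal markers in the Pmaip1 differences was not tested.

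**Figure D3:**
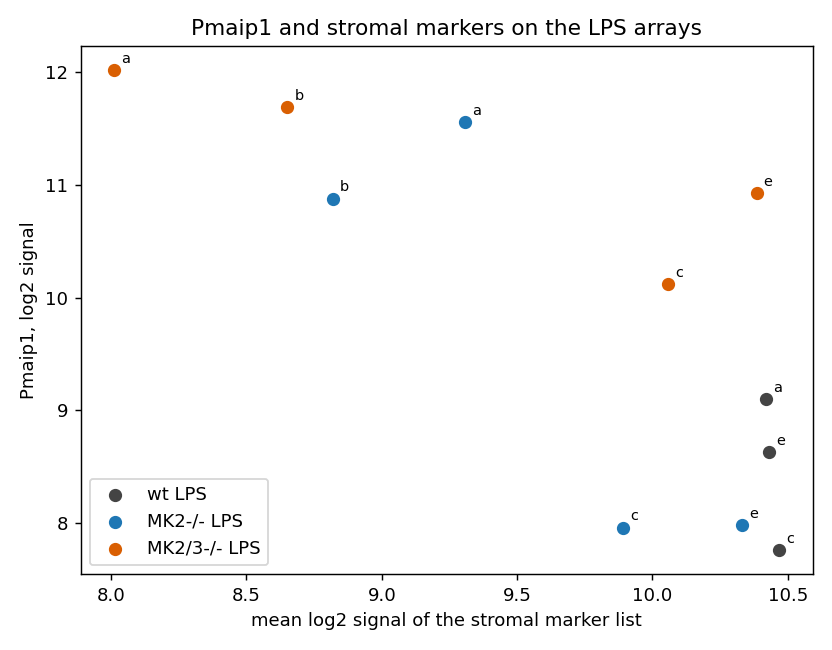
Pmaip1 log2 signal (vertical axis) against the mean log2 signal of Col1a1, Col1a2, Dcn and Pdgfrb (horizontal axis) on the 11 LPS arrays, by genotype, with the replicate letter beside each point. The 4 arrays with a stromal mean below 9.5 are knockout arrays with Pmaip1 between 10.88 and 12.02, and the 3 wt arrays lie at a stromal mean of 10.42 to 10.47 with Pmaip1 between 7.76 and 9.10.

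Of the other BH3-only genes, Bad fell and Bbc3 and Bid were not called. Bad was at 12.99, 12.81, 13.24 and 12.94 in medium-treated and 12.59, 12.28 and 11.92 in LPS-treated wt BMDM, with values of 13.18, 13.54, 13.24 and 13.03 against 12.55, 12.30, 11.97 and 11.87 in MK2-/- BMDM and of 13.10, 12.57 and 12.80 against 12.03, 11.41, 11.87 and 11.42 in MK2/3-/- BMDM. LPS and medium arrays did not overlap in any genotype. Bad fell by 0.73 in wt (SE 0.22, 1.66-fold, limma adjusted p 0.0116), fell by 1.07 in MK2-/- (SE 0.20, 2.10-fold, adjusted p 0.000213) and fell by 1.14 in MK2/3-/- BMDM (SE 0.22, 2.21-fold, adjusted p 0.000237). With 75th percentile scaling the changes were -0.31, -0.62 and -0.83, and the call in wt was lost (adjusted p 0.265). It was also lost without replicate 3 of LPS-treated wt (-0.56, limma adjusted p 0.0817). The second probe of Bad gave -0.25, -0.17 and -0.18, none of them called.

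Bbc3, whose product PUMA binds all survival proteins, lay between 10.40 and 12.50 over the 22 arrays. Its changes were -0.13 in wt (95% confidence interval -0.84 to 0.58), -0.74 in MK2-/- (-1.39 to -0.08, adjusted p 0.0638) and -0.67 in MK2/3-/- BMDM (-1.38 to 0.04, adjusted p 0.112). The value in MK2-/- BMDM was called in some other settings, for example with the replicate letter as a random block (adjusted p 0.0376). Bid, which caspase 8 cleaves, lay between 9.70 and 11.29, and its changes were 0.45 in wt (-0.18 to 1.08), -0.06 in MK2-/- (-0.65 to 0.52) and -0.22 in MK2/3-/- BMDM (-0.85 to 0.41).

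The pore-forming members differed from each other. Bax was at 13.46, 13.89, 13.81 and 13.32 in medium-treated and 13.22, 12.39 and 12.96 in LPS-treated wt BMDM, without overlap. It fell by 0.76 in wt (SE 0.22, 1.70-fold, limma adjusted p 0.00928) and fell by 0.75 in MK2/3-/- BMDM (1.68-fold, SE 0.22, adjusted p 0.0083), where arrays at 13.35, 13.39 and 13.27 in medium stood above 12.33, 12.51, 12.93 and 12.57 with LPS. In MK2-/- BMDM the change was -0.47 (limma adjusted p 0.0672), and it was called with the array letter as a block (adjusted p 0.047). With 75th percentile scaling the changes were -0.19, 0.04 and -0.25 in wt, MK2-/- and MK2/3-/- BMDM, and none was called.

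Bak1 was not called, with changes of 0.27 in wt, 0.44 in MK2-/- and 0.45 in MK2/3-/- BMDM (limma adjusted p 0.315, 0.069 and 0.0788). Every LPS array of both knockouts nevertheless lay above every medium array of its genotype, at 13.72 to 14.06 against 13.12 to 13.65 in MK2-/- and at 13.89 to 14.06 against 13.33 to 13.75 in MK2/3-/- BMDM. With the array letter as a block Bak1 was called in MK2-/- BMDM (adjusted p 0.0457). With 75th percentile scaling Bak1 was called in all 3 genotypes, with changes of 0.96 in wt, 1.14 in MK2-/- and 1.197 in MK2/3-/- BMDM (adjusted p 0.00103, 8.66e-05 and 0.000112).

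**Figure D4:**
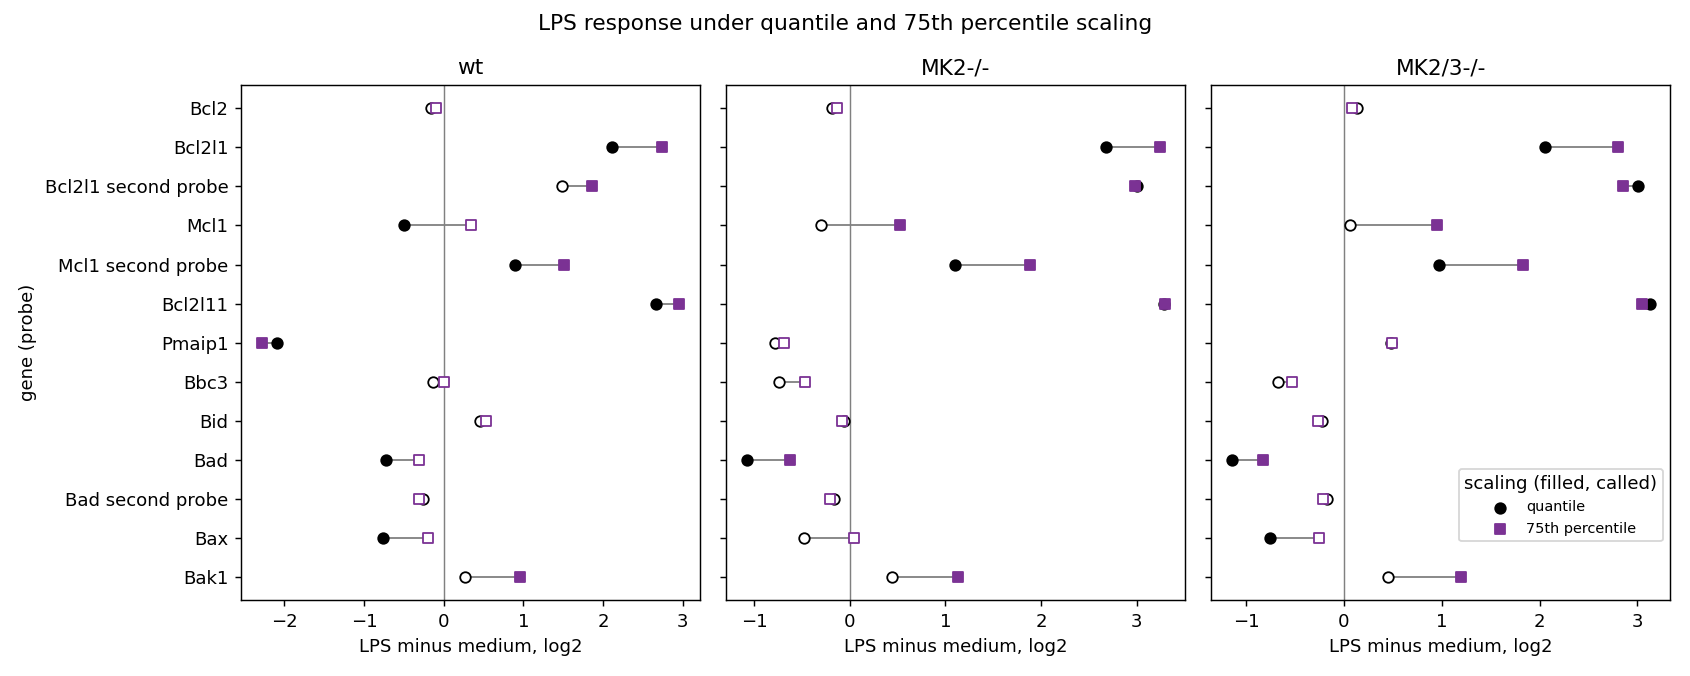
LPS minus medium on the log2 scale (horizontal axes) for the 13 probes (vertical axis) in each genotype, after quantile normalisation (circles) and 75th percentile scaling (squares), filled where called. The bright probes of Mcl1, Bax and Bak1 moved to the right by more than the median of all probes, and Mcl1 in wt moved from -0.50 to 0.35.

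Genotypes were then compared with each other. Arrays of one genotype shared a slide, so genotype and slide cannot be told apart in these differences, although a constant slide effect drops out when LPS responses are compared. Under LPS MK2/3-/- BMDM differed from wt in 3 of the 10 genes, where 23.7% of all probes were called. These were Bcl2, Mcl1 and Pmaip1, all higher in MK2/3-/- BMDM. The 75th percentile scaling changed the set to 2 higher genes, Bcl2 (1.12) and Pmaip1 (2.69), and 3 lower ones, Bax (-0.60, adjusted p 0.0441), Bid (-1.04, adjusted p 0.0118) and Bad (-0.95, adjusted p 0.00353), while Mcl1 was lost. None was called between MK2-/- and wt (11.6% of all probes) or between MK2/3-/- and MK2-/- (13.4%). In these comparisons 0 and 4 genes had an unadjusted limma p below 0.05, beside 8301 and 7899 of the 28105 probes. The unadjusted t-test of the study's methods gave 0 and 3 genes. Of the probes called in the comparison of LPS-treated MK2/3-/- with wt, 37.3% were higher, or 55.7% with 75th percentile scaling. The share of all probes called under that scaling is not given here.

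Bcl2 was at 9.18, 9.32, 10.03 and 9.25 in LPS-treated MK2/3-/- BMDM and at 7.99, 8.54 and 8.42 in LPS-treated wt. All MK2/3-/- arrays lay above all wt arrays, with a difference of 1.13 (SE 0.26, 2.18-fold, limma adjusted p 0.00436). The call was lost with only the groups compared (limma adjusted p 0.0549) and in the t-test with Benjamini-Hochberg adjustment (adjusted p 0.0968). LPS-treated MK2-/- BMDM, at 8.64, 9.09, 8.44 and 9.02, lay between MK2/3-/- and wt and overlapped with wt only. In medium the order was the same, with 8.41, 8.81, 8.47 and 8.24 in wt, 8.56, 9.48, 8.64 and 9.27 in MK2-/- and 9.48, 9.20 and 9.25 in MK2/3-/- BMDM, and the difference of 0.83 between MK2/3-/- and wt was not called (SE 0.26, adjusted p 0.0998) although these arrays did not overlap.

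Both probes of Mcl1 were higher in LPS-treated MK2/3-/- than in LPS-treated wt BMDM. The first was at 15.88, 15.80, 15.70 and 15.55 and the second at 14.71, 14.75, 14.62 and 15.05, above every wt array. The differences were 0.59 (SE 0.17, limma adjusted p 0.017) and 0.81 (SE 0.23, 1.75-fold, adjusted p 0.0149). With 75th percentile scaling they were 0.35 and 0.67 and neither was called (adjusted p 0.15 and 0.058), and without the letter b arrays the first was 0.56 (adjusted p 0.0692).

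Pmaip1 differed most between the LPS-treated genotypes. Its values of 10.12 to 12.02 in MK2/3-/- BMDM lay above the 7.76 to 9.10 of wt, by 2.69 (SE 0.71, 6.44-fold, limma adjusted p 0.011), and the difference was lost as a call without replicate 2 of LPS-treated wt (2.32, adjusted p 0.0525). Against MK2-/- BMDM the difference was 1.59 (95% confidence interval 0.21 to 2.98, adjusted p 0.119). Among other markers, the mean of 5 dendritic cell markers (Flt3, Zbtb46, Xcr1, Siglech and Clec9a) was highest in LPS-treated MK2/3-/- BMDM. It was 9.08 to 9.57 there and 6.998 to 8.13 on all other arrays. In LPS-treated wt, MK2-/- and MK2/3-/- BMDM the group means were 3.26, 3.09 and 5.80 for Xcr1 and 3.96, 4.04 and 6.94 for Clec9a. They were 6.03, 5.13 and 6.73 for Flt3, 10.58, 10.65 and 11.29 for Zbtb46, and 15.80, 15.77 and 15.97 for Siglech. Flt3 and Siglech were higher in medium-treated than in LPS-treated MK2/3-/- BMDM, at 7.24 and 16.71. Xcr1 was well above background on 4 arrays and Clec9a on 15. The part of these markers in the differences of Bcl2, Mcl1 and Pmaip1 was not tested.

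In medium no member was called between genotypes after quantile normalisation. The 75th percentile scaling gave 1 call in each knockout against wt, Bcl2 in MK2/3-/- BMDM with a difference of 0.93 (adjusted p 0.0161) and Bak1 in MK2-/- BMDM with a difference of -0.59 (adjusted p 0.0405). The shares of all probes called were 7.91% for MK2-/- against wt, 1.92% for MK2/3-/- against wt and 2.73% for MK2/3-/- against MK2-/-. Of the members, 2, 1 and 1 had an unadjusted limma p below 0.05, and of the 28105 probes 7151, 4768 and 4184 did. The unadjusted t-test gave 2, 2 and 0 members. Bbc3 came closest in MK2-/- BMDM, where 12.50, 12.44, 12.11 and 12.41 lay above 10.78, 11.45, 11.42 and 11.90 in wt (difference 0.98, SE 0.31, adjusted p 0.06).

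LPS responses were next set against each other across genotypes by interaction terms, and no member was called in any of the 3 comparisons. Among all probes the shares called were 0% for MK2-/- against wt (with 2165 probes at an unadjusted limma p below 0.05), 0.978% for MK2/3-/- against wt and 0.0676% for MK2/3-/- against MK2-/-. At an unadjusted p below 0.05 the counts of members were 0, 2 and 0, beside 2165, 3336 and 2463 of the 28105 probes. The 2 genes were Pmaip1, with a response 2.58 higher in MK2/3-/- than in wt BMDM (SE 1.01, 95% confidence interval 0.46 to 4.69, adjusted p 0.276), and Mcl1 with 0.56 (SE 0.24, 0.07 to 1.06, adjusted p 0.328), while the second probe of Mcl1 gave 0.08 (-0.59 to 0.75). For Bcl2l1 the interval was -1.25 to 1.13 and for Bax -0.64 to 0.67 in the same comparison. Hence the fall of Pmaip1 was called in wt alone, and a difference between genotypes in that response was not shown.

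Other genes of the pathway were examined by lists. Of 19 further BCL-2 family genes and partners, 17 had a probe that was tested, and 9 were called in wt (4 higher, 5 lower), 12 in MK2-/- (6 and 6) and 11 in MK2/3-/- BMDM (5 and 6), with a median change of 0.12, 0.63 and -0.28. Of all probes, 42%, 45.4% and 48.6% were called in these comparisons. Bmf, a BH3-only gene whose product can neutralise survival proteins much like BIM, fell most. It was at 11.96 to 12.74 in medium-treated and 4.41 to 5.82 in LPS-treated wt BMDM, at 11.74 to 13.00 and 3.53 to 5.35 in MK2-/-, and at 12.02 to 12.72 and 2.43 to 3.78 in MK2/3-/- BMDM. The treatments were far apart in every genotype, and Bmf was not well above background on any LPS-treated MK2/3-/- array.

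Bmf fell by 7.04 on the log2 scale in wt (132-fold, limma adjusted p 1.04e-09), fell by 7.69 in MK2-/- (207-fold, adjusted p 6.6e-11) and was at least 412.5-fold lower in MK2/3-/- BMDM (adjusted p 3.66e-11). For this lower bound, each LPS array entered with the probe's own signal or, if larger, with the dimmest signal that was still detected on that array. The size depended on the background correction, and with normexp the changes were -5.54, -5.89 and -6.08, so the bound holds for the processed signal alone. Bmf thus moved opposite to Bcl2l11, and both code for BH3-only proteins.

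Probes named for genes of the A1 group rose. A1 is a survival protein, and whether each copy codes for a working protein was not examined. Bcl2a1c went from 8.78 to 11.43 in medium to 15.11 to 16.09 with LPS in wt BMDM, a rise of 5.34 (40.4-fold, limma adjusted p 2.5e-08), with 5.82 in MK2-/- and 5.61 in MK2/3-/- BMDM. Bcl2a1d rose by 3.99 in wt (15.9-fold, adjusted p 1.94e-08), 4.22 in MK2-/- and 3.74 in MK2/3-/- BMDM. The A1 genes are near-identical copies, so a probe of one may bind transcripts of another, and Bcl2a1a and Bcl2a1b had no probe under their names. Bcl2l15 rose by 2.97, 2.46 and 1.12 in wt, MK2-/- and MK2/3-/- BMDM, but its medium values were near background, with 2 of 4 wt arrays and 1 of 4 MK2-/- arrays well above it. With normexp the changes were 1.38, 0.66 and 0.47, and its call in MK2/3-/- BMDM (adjusted p 0.0467) ended in 14 of 22 fits that left out an array. Bnip3l, known for the removal of mitochondria, fell by 2.57 in wt (adjusted p 1.32e-05), where replicate 1 with LPS was at 9.56 and the others at 11.89 and 11.62, and by 1.84 without that array. Its changes were -1.52 and -1.67 in the knockouts, both called.

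Of 17 genes of caspase activation downstream of mitochondria, all tested, 12 were called in wt (5 higher, 7 lower), 14 in MK2-/- (7 and 7) and 15 in MK2/3-/- BMDM (7 and 8), beside the 42%, 45.4% and 48.6% of all probes, with a median change of -0.05, -0.22 and 0.08. Birc5, which codes for survivin, a protein of dividing cells, fell by 3.17 in wt (limma adjusted p 0.00257), with -4.30 and -4.26 in MK2-/- and MK2/3-/- BMDM. Birc3, the gene of the inhibitor cIAP2, rose by 3.05, 2.79 and 3.14 in wt, MK2-/- and MK2/3-/- BMDM. Within the apoptosome, which cytochrome c assembles, Apaf1 rose by 1.70, 1.60 and 2.14 while its partner Casp9 changed by -1.91, -2.07 and -2.13, all called.

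The last list held 18 regulators of BCL-2 family transcription and protein turnover, all tested. In wt 11 were called (9 higher, 2 lower), in MK2-/- 14 (11 and 3) and in MK2/3-/- BMDM 12 (7 and 5), with a median change of 0.68, 0.78 and 0.41. All probes gave 18.3% higher and 23.7% lower in wt, 17.6% and 27.8% in MK2-/-, and 20.1% and 28.5% in MK2/3-/- BMDM, a split that the scaling moves as given above. Stat3 rose by 2.76, 2.35 and 2.93 and Nfkb1, which codes for a subunit of NF-κB, by 2.67, 2.84 and 3.10 in wt, MK2-/- and MK2/3-/- BMDM. Mdm2, the gene of the ubiquitin ligase of p53, rose by 1.29, 0.92 and 1.28. Foxo1, from the family of factors that can bind the letters shown for Bcl2l11, had changes of -1.58, -1.72 and -1.68, all called. Jun had changes of -1.41, -2.09 and -2.18, all called, and its call in wt ended in 4 of 22 fits that left out an array and with 75th percentile scaling (-1.06, adjusted p 0.0529). Between genotypes under LPS, 0, 3 and 3 of the 18 were called for MK2-/- against wt, MK2/3-/- against wt and MK2/3-/- against MK2-/-. The same counts were 1, 4 and 3 of 17 for the further family genes and 1, 5 and 0 of 17 for the caspase list. Beside these counts, 11.6%, 23.7% and 13.4% of all probes were called in the same comparisons.

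Trp53, the gene of p53, of which Pmaip1, Bbc3 and Bax are known targets, was the single gene of the 3 lists whose LPS response was called as different between genotypes. It was at 8.37, 7.82, 7.79 and 8.24 in medium-treated and 8.70, 8.62 and 9.35 in LPS-treated wt BMDM. The MK2/3-/- arrays were at 8.02, 7.87 and 7.97 in medium and at 6.92, 7.10, 7.51 and 6.68 with LPS. Medium and LPS arrays did not overlap in either genotype, and the directions were opposite. Trp53 rose by 0.84 in wt (limma adjusted p 0.0107), fell by 0.90 in MK2/3-/- BMDM (adjusted p 0.00513) and had a change of -0.10 in MK2-/- BMDM (adjusted p 0.775). The call of the rise in wt was lost without replicate 3 of LPS-treated wt (0.61, limma adjusted p 0.0858). It was also lost in the t-test with Benjamini-Hochberg adjustment (adjusted p 0.0564).

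The LPS response of Trp53 in MK2/3-/- minus that in wt BMDM was -1.74 on the log2 scale (SE 0.35, limma adjusted p 0.0291). Leaving out single arrays ended the call in 8 of 22 fits, and over the 22 fits the value ran from -1.89 to -1.51. The call also ended without the letter b arrays (-1.71, limma adjusted p 0.115) and with 75th percentile scaling (-1.64, adjusted p 0.0709). With only the groups compared it ended too (-1.74, limma adjusted p 0.0526). Trp53 transcript and its targets among the members are given side by side only. Under LPS Pmaip1 was higher in MK2/3-/- than in wt BMDM while Trp53 was lower (difference -1.84, adjusted p 9.22e-05), Bbc3 was not called between them, and Bax was called, as lower, with 75th percentile scaling (-0.60, adjusted p 0.0441) but not after quantile normalisation.

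**Figure D5:**
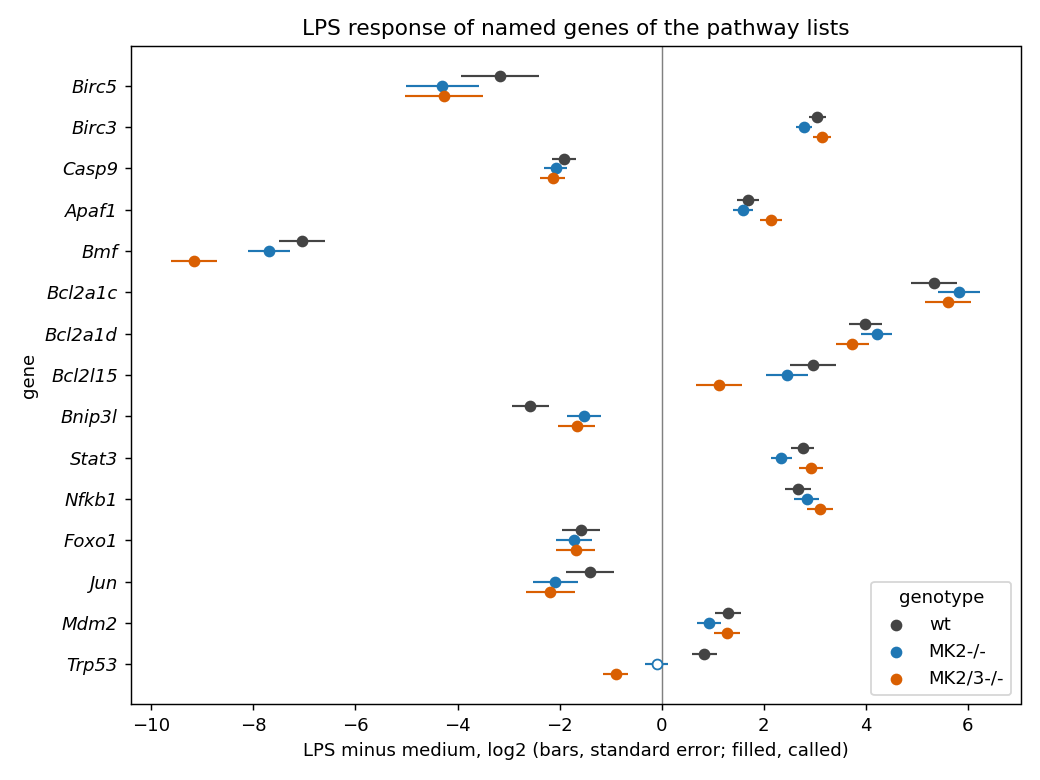
LPS minus medium on the log2 scale (horizontal axis) for the named genes of the pathway lists (vertical axis) in each genotype, with standard errors and filled points where called. Bmf lies at -7.04 or below and Bcl2a1c at 5.34 or above in all genotypes, and Trp53 lies on opposite sides of 0 in wt and MK2/3-/- BMDM; the Bmf point of MK2/3-/- is the fitted value, of a probe that was not well above background with LPS.

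The genes whose pattern over the 22 arrays was most like that of the members with the widest range of group means were also listed, among 18375 named genes. For Bcl2l11 (range 3.29) these were Gm13889 (Pearson r 0.991), Pcgf5 (0.990), Exoc3l4 (0.990), Nup98 (0.987) and Wdr59 (0.987). For Bcl2l1 (range 2.96) they were Pik3ap1 (0.967), Ets2 (0.966), Spred1 (0.956), Nfkbie (0.952) and Rin2 (0.951). For both members the arrays separate by treatment, and such correlations rest largely on that separation and are a description only. The third widest range was that of Pmaip1, at 2.69, between 8.50 in LPS-treated wt and 11.19 in LPS-treated MK2/3-/- BMDM.

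By group mean, the order of the 6 groups differed from gene to gene. For Bcl2 the 4 lowest group means were those of both wt groups and both MK2-/- groups, and neighbours in that order overlapped. For Bcl2l1 and Bcl2l11 the 3 LPS groups stood above the 3 medium groups, and within each treatment no pair of genotypes was called as different. For Bad and Bax the LPS groups stood below the medium groups, with LPS-treated MK2/3-/- BMDM lowest at 11.68 and 12.59. For Mcl1 the range of group means was 0.59 by its first probe, while means of its second probe ran from 13.08 in medium-treated wt to 14.78 in LPS-treated MK2/3-/- BMDM.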

How the data were processed

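RNA of 22 BMDM cultures was hybridised by the authors to Agilent SurePrint mouse arrays in 1 colour. The deposited scanner tables, made with Feature Extraction 11.0.1.1 per the file headers, hold a processed intensity per spot after background subtraction. The authors also deposited a log2 table that was quantile normalised and centred on the median, used here only as an alternative.

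Control spots and outlier spots were left out, log2 processed signals of spots were quantile normalised over the 22 arrays, and spots of a probe were then averaged. A probe entered if it carried a RefSeq or GenBank accession and was detected over background on 3 or more arrays, which left 28105 of 55681. Shares of all probes refer to these. Names came from RefSeq accessions (27509 of 29150 matched in the GRCm38.p6 table), and coordinates of the array's design were not used. A model with 6 group means was fitted with limma 3.58.1 in R 4.3.3, Benjamini-Hochberg adjustment ran over all probes, and the procedure was tested on simulated data. The number of arrays limits the precision.

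The members and gene lists were chosen with earlier results of these data known. Named genes were the 10 members, up to 5 called genes per list with the largest change in wt, list genes called in a difference of responses, and the 5 genes most alike to 2 members; 1 gene under this rule is not reported here. Alternatives were 75th percentile scaling, normexp correction (offset 50, on the median signal), no filter on dim probes, array weights, replicate blocks, the t-test of the study's methods, other sets of samples and each array left out. Leaving out the letter b arrays or the arrays against their label was chosen after seeing the data. Correlations of deviations from the group means were above 0.1 in 7 of 10 pairs with the same replicate number, in 7 of 10 with the same array letter, and in 5 of 30 unlike pairs. No source states that a number or letter marks 1 animal, and 3 pairs of each kind lay below this value, so blocks stayed alternatives.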

Additional observations from a re-analysis of the deposited data

Results flagged for a closer look

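Among 52 groups of 4 arrays, 4 held a value far from the other 3 for its group, and chance gives about 1 in 20. Bcl2 was at 10.03 on replicate 3 of LPS-treated MK2/3-/- BMDM, with the others at 9.18 to 9.32. The second Mcl1 probe was at 12.72 on replicate 3 of medium-treated wt, with the others at 13.17 to 13.21. Bcl2l11 was at 7.97 on replicate 2 of medium-treated MK2-/- BMDM, with the others at 8.37 to 8.42. Pmaip1 was at 11.55 on replicate 1 of medium-treated MK2-/- BMDM, with the others at 9.94 to 10.02. The LPS response of Trp53 differed between MK2/3-/- and wt BMDM by -1.74 on the log2 scale in a test of the difference itself (limma adjusted p 0.0291).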

How the results depend on the processing

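The numbers of BCL-2 family genes called were recomputed under other settings. After LPS in wt the 6 genes became 3 when a 2-fold change was also required and 3 without the letter b arrays, and 3 to 6 with 1 array left out (3 without replicate 2 of LPS-treated wt). With 75th percentile scaling Mcl1, Bax and Bad lost their call in wt (limma adjusted p 0.136, 0.515 and 0.265) and Bak1 gained one (adjusted p 0.00103). In MK2-/- BMDM the 3 genes became 5 with 75th percentile scaling or array weights, 6 with normexp correction or the unadjusted t-test, and 3 to 4 with 1 array left out. Between LPS-treated MK2/3-/- and wt BMDM the 3 higher genes became 2 higher and 3 lower (5 in all) with 75th percentile scaling, 0 in the t-test with Benjamini-Hochberg adjustment, 1 with only the groups compared, and 1 to 4 with 1 array left out (1 without replicate 2 and 4 without replicate 3 of LPS-treated wt). Under LPS, MK2-/- against wt went from 0 to 1 with array weights, and MK2/3-/- against MK2-/- from 0 to 3 in the unadjusted t-test, to 1 with array weights and to 0 to 1 with 1 array left out (1 without replicate 1 of LPS-treated MK2-/-). In medium, MK2-/- against wt and MK2/3-/- against wt each went from 0 to 1 with 75th percentile scaling or array weights and to 2 in the unadjusted t-test, and the former to 0 to 1 with 1 array left out (1 without replicate 1 or 3 of LPS-treated wt). The t-test was not run for differences of responses. The causes were not tested.

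With a replicate block within genotype, MK2-/- BMDM had 6 genes called after LPS by array letter (with Bbc3, Bax and Bak1 added) and 5 by replicate number (with Bbc3 and Bak1), and no other count moved by over 1.5 times.

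The direction turned for Mcl1 with 75th percentile scaling in wt (0.35) and MK2-/- (0.52), for Bax in MK2-/- (0.043) and for Bbc3 in wt (0.0012). With array weights it turned for Bbc3 in wt (0.10), Pmaip1 in MK2-/- (0.022) and Bid in MK2-/- (0.12). With 1 array left out, Bbc3 in wt ran from -0.52 to 0.29, above 0 without replicate 1 of LPS-treated or replicate 4 of medium-treated wt. Bid in MK2-/- ran from -0.18 to 0.11, above 0 without replicate 3 with LPS or replicate 1 in medium, and was at 0.029 without the arrays against their label. In MK2/3-/- BMDM, Bcl2 ran from -0.061 to 0.22, below 0 without replicate 3 with LPS, and Mcl1 from -0.087 to 0.19, below 0 without replicate 3 in medium. Bcl2l1 (first probe) and Bcl2l11 stayed called after LPS in all 3 genotypes under every alternative run.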
